A study of Callithrix jacchus with 4 samples.

Results

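The 7 genes described here encode the 5 subunits of the transcription factor NF-kappaB (NFKB1, NFKB2, RELA, REL and RELB) and 2 of its feedback inhibitors (NFKBIA and TNFAIP3). They were chosen by name, as the family's subunits and as inhibitors that NF-kappaB itself induces, with earlier results of these data known. All 7 were listed in both deposited gene tables, and they are 7 of 32323 genes listed for the injured cohort and of 16383 listed for the control cohort as well. Their identifiers are ENSCJAG00000015382 (NFKB1), ENSCJAG00000017928 (NFKB2), ENSCJAG00000002037 (RELA), ENSCJAG00000008975 (REL), ENSCJAG00000012991 (RELB), ENSCJAG00000006806 (NFKBIA) and ENSCJAG00000019019 (TNFAIP3).

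NF-kappaB subunits work as dimers. In a resting cell, IkappaB proteins, of which NFKBIA encodes IkappaBalpha, hold the dimers in the cytoplasm, and the NFKB1 and NFKB2 products are precursors that are processed to p50 and p52. Cytokine, Toll-like and interleukin-1 receptors activate kinases that lead to the destruction of IkappaB (the canonical pathway, mainly through RELA and REL) or to the processing of NFKB2 (the non-canonical pathway, with RELB). The freed dimers transcribe inflammatory and survival genes together with their own inhibitors, so that NFKBIA and TNFAIP3, which encodes the ubiquitin editor A20, are widely used as readouts of pathway activity in glia, vessels and immune cells.

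The data are single-nucleus RNA counts from the primary visual cortex (V1) of adult common marmosets (Callithrix jacchus), a New World monkey. The injured cohort comprised 3 animals, each with its own library, in which ischemic stroke had been induced by injecting the vasoconstrictor endothelin-1 (ET-1) 7 days earlier, and the tissue held both infarct core and penumbra. The control cohort was uninjured, with no sham surgery described. The study calls the controls non-lesioned animals, while a supplementary legend names contralateral V1 as the uninjured control. Tissue from 3 control animals had been pooled into 1 library, so the spread between control animals cannot be seen. Nuclei carry the authors' labels of 7 cell types, namely excitatory neurons (ExN), inhibitory neurons (InN), astrocytes (Astro), oligodendrocytes (Oligo), their precursors (OPC), Microglia and Endo, the vascular class.

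The injured libraries held 7500, 12527 and 9510 nuclei with 35737777 to 48722394 UMIs (counted RNA molecules), and the control library held 8610 nuclei with 22832703 UMIs. Control glia and vessels were thinly sampled, with 129 Microglia, 181 Endo and 171 OPC nuclei and sums of 124463 to 204095 UMIs, against 2218 to 2823 Microglia nuclei per injured animal. Nuclei isolation (sucrose ultracentrifugation or sorting of Hoechst-stained nuclei), sequencing platform, facility and doublet removal differed between the cohorts in step with injury, and their parts and that of injury cannot be told apart. Of the cell type markers in the study's methods, 32 of 33 in the injured and 31 of 32 in the control cohort were highest in their own type, the exceptions being GPR34 in injured OPC and FLT1 in control Microglia. Injured Microglia nuclei included 2216 (28.7%) of a cluster, number 16, that carried the T-cell gene CD3E at 96.3 CPM (counts per 1000000 UMIs of the sum) and the B-cell gene MS4A1 at 136 CPM, and F13A1, a macrophage gene, had a UMI in 62.6% of injured Microglia nuclei. CD74 had a UMI in 83.9% of injured but 0.775% of control Microglia nuclei, while P2RY12 had one in 24.8% and 20.2%. All these shares are at unequal depth, with a median of 793 UMIs per Microglia nucleus in control and 2428 to 3930 in the injured animals. Similar shares therefore do not mean similar levels per UMI. Any pair of libraries shared at most 27 barcodes.

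Levels were computed for each animal and cell type as CPM, and the cohorts were compared within each type by edgeR's quasi-likelihood test on the summed UMIs, with Benjamini-Hochberg adjustment over all genes of the type. With 3 libraries against 1, the control's spread is assumed equal to that of the injured libraries, and an exact permutation test could not give a two-sided p below 0.5. A gene was called where its adjusted p was below 0.01, its natural-log fold change exceeded 0.25 in size and at least 10% of nuclei in 1 of the cohorts held a UMI of it. Of the 49 pairs of a member and a cell type, 46 passed the filter on low counts (NFKB2 and TNFAIP3 in InN and TNFAIP3 in Oligo did not), and 1 was called, NFKBIA in Endo. DESeq2 with the same limits called 2, NFKBIA in Endo and in Astro, where it called 5.18% and 2.81% of all genes. In 27 of the 46 pairs the share of nuclei with a UMI was under 10% in both cohorts, so that no p could have called them, and none of the 27 had an adjusted p below 0.01. Beside the edgeR call, 6.18% of all genes tested in Endo were called, 1.5% in Astro, 3.85% in ExN, 3.41% in InN, 0.774% in Oligo, 0.0697% in OPC and 0.00% in Microglia.

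At an adjusted p below 0.05 in the same edgeR fits, with no other limit, 11 of the 46 pairs passed. They were 2 of 7 members in Astro (10.4% of all genes there), 3 of 7 in Endo (18.6%), 3 of 7 in ExN (24.6%), 1 of 5 in InN (17.7%), 2 of 6 in Oligo (9.75%), 0 of 7 in Microglia (2.77%) and 0 of 7 in OPC (1.25%). An unadjusted p below 0.05 was reached by 3 of 7 members in Astro (30% of all genes), 4 of 7 in Endo (33.1%), 4 of 7 in ExN (40.2%), 2 of 5 in InN (34.8%), 3 of 7 in Microglia (21.2%), 3 of 6 in Oligo (30.8%) and 4 of 7 in OPC (19.9%). In Microglia no gene at all was called by edgeR, while 2857 genes had an unadjusted p below 0.05 and DESeq2 called 318 genes (2.36%), none of them a member.

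**Figure D1:**
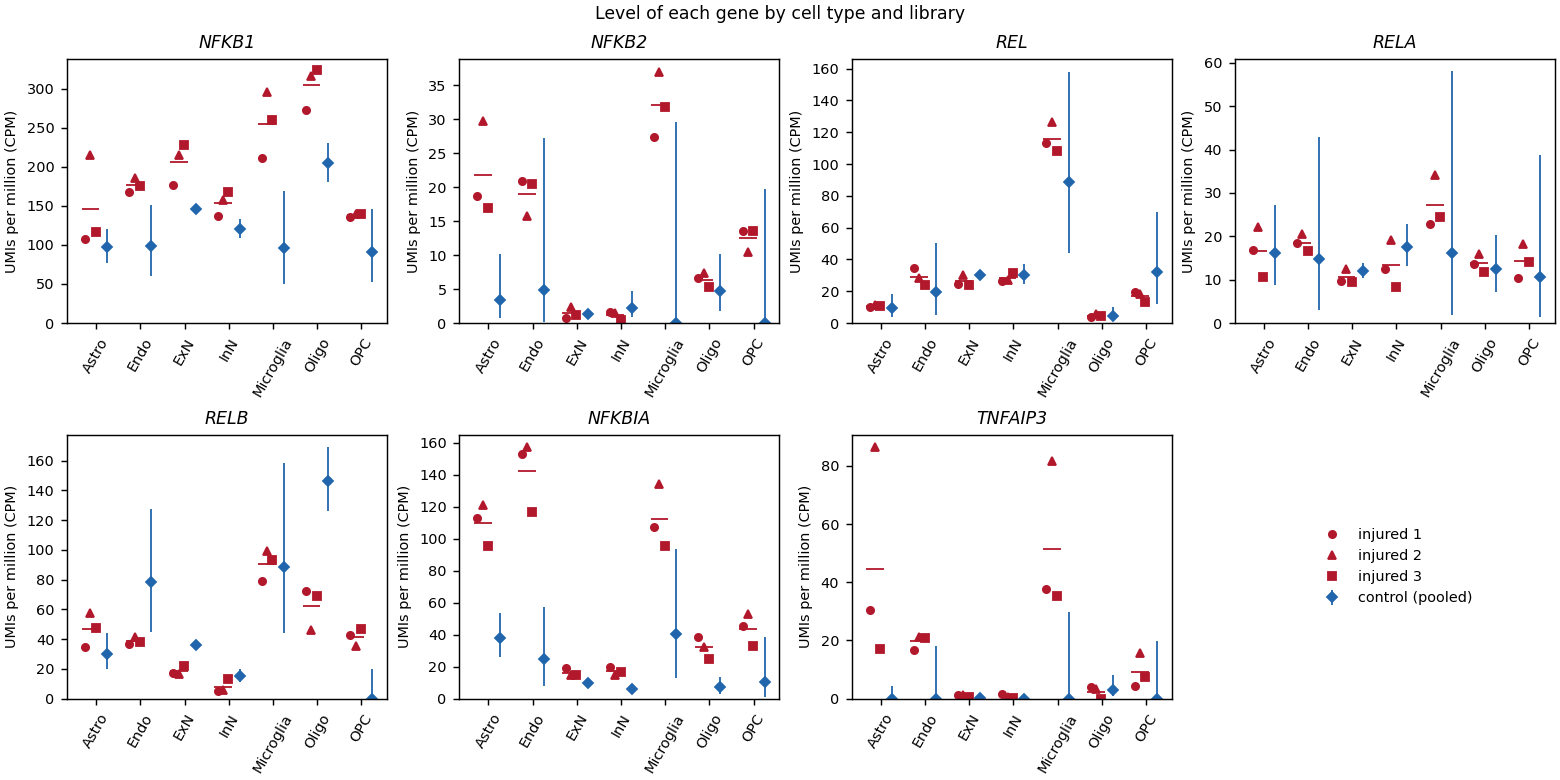
Level of each of the 7 genes (CPM, linear axis from 0) in the 7 cell types. Red circles, triangles and squares are injured animals 1, 2 and 3 with their mean as a bar, and the blue diamond is the pooled control library with its exact Poisson 95% interval, which covers counting error only. The 3 injured points of NFKBIA and of NFKB1 lie above the control point in all 7 types, and TNFAIP3 has no control UMI in 5 of them.

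NFKBIA was above control in every injured animal in all 7 types, and was called in 1 of them. In Endo its level was 153, 157 and 117 CPM in injured animals 1, 2 and 3 and 24.5 CPM in control, where it rested on 5 UMIs (exact Poisson 95% interval 7.95 to 57.2 CPM). All 3 animals lay above the control interval. The gene rose in Endo by 2.67 on the log2 scale (SE 0.47, edgeR adjusted p = 0.00636), beside a median of 0.26 over all genes tested there, of which 4.19% were called higher.

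The Endo label included markers of several vascular cell types, in different proportions in the cohorts. In the injured animals it also included a large cluster, number 19, with little of the endothelial markers FLT1, IGFBP7 and SLC2A1 (described below). Summed fibroblast markers (DCN, COL1A2 and LAMA2) stood at 1087 to 1745 CPM in the injured animals and 5159 CPM in control, and the summed pericyte markers PDGFRB and RGS5 at 553 to 898 CPM against 147 CPM. When nuclei with a UMI of a fibroblast marker were left out, an alternative chosen after seeing the data, control Endo kept 48 of 181 nuclei with 4 NFKBIA UMIs (89.6 CPM) against 160, 171 and 138 CPM, and the difference was 1.17 with an edgeR adjusted p of 0.284. The median over all genes in that fit was 0.90, so NFKBIA stood much nearer to it than among all nuclei. The call was also lost without injured animal 1 (2.62, adjusted p = 0.0155), with library size in place of TMM scaling (2.55, adjusted p = 0.0115) and with every nucleus thinned to 1000 UMIs (2.61, adjusted p = 0.0360), while the difference stayed near its size in these 3 fits.

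In Astro, NFKBIA was at 113, 121 and 95.8 CPM in the injured animals and at 38.1 CPM (33 UMIs) in control. The log2 difference of 1.64 (SE 0.27, edgeR adjusted p = 0.0111) just missed the limit, and it passed without injured animal 2 (adjusted p = 0.00186) or without animal 3 (adjusted p = 0.00717). More genes of the pathway lists described below were also called in Astro in these 2 refits. The share of all genes called in them is not given. In Microglia the NFKBIA levels were 107, 134 and 95.3 CPM against 40.2 CPM on 5 UMIs, a difference of 1.74 (SE 0.51) that did not pass (edgeR adjusted p = 0.138). Thus Endo, Astro and Microglia of all 3 injured animals stood above control, and only the Endo difference was called.

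Oligodendrocyte-lineage nuclei held less NFKBIA. Oligo stood at 38.6, 32.4 and 25 CPM in the injured animals against 7.05 CPM (9 UMIs) in control, a log2 difference of 2.28 (SE 0.42, edgeR adjusted p = 0.0226). In OPC the levels were 45.6, 52.9 and 33 CPM against 10.7 CPM on 2 UMIs, a ratio of 3.99 with a counting interval of 1.09 to 33.2. Every injured value lay above control in both types.

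Injured neurons had the lowest NFKBIA levels of the injured cohort. In ExN they were 19.2, 14.8 and 14.8 CPM against 9.77 CPM on 167 UMIs, a log2 difference of 0.84 (SE 0.22, edgeR adjusted p = 0.0370). In InN they were 20.0, 14.7 and 16.8 CPM against 5.84 CPM on 18 UMIs, a difference of 1.63 (SE 0.36, adjusted p = 0.0155). Both neuronal classes were thus above control in every animal, and their shares of nuclei with a UMI (8.84% in injured ExN, 8.38% in injured InN) were under the limit for a call. In the injured cohort NFKBIA was at 14.2% of its Microglia level in ExN and 14.9% in InN. The Microglia marker GPR34 was there at 17.6% and 19.8% of its own Microglia level, the other 4 markers at 2.66% to 9.49% and 2.58% to 9.72%, and what RNA of other cells adds to the neuronal levels was not tested.

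TNFAIP3 was nearly absent from the control library, with 10 UMIs in all, 6 of them in ExN and 4 in Oligo. In Microglia it was at 37.7, 81.7 and 35.3 CPM in the injured animals. Their pooled level of 48.6 CPM was at least 2.02-fold above the control limit of 24.1 CPM that 3 UMIs would give. All bounds given here are of the pooled injured level, and single animals can lie nearer to the limit. In Astro TNFAIP3 was at 30.4, 86.5 and 17.2 CPM. The pooled level of 43.2 CPM was at least 12.4-fold above a limit of 3.47 CPM, and that without animal 2 at least 6.33-fold. The injured animals themselves differed widely, with animal 2 highest in both types and standard deviations of 26.2 CPM in Microglia and 36.8 CPM in Astro.

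In Endo the TNFAIP3 levels were 16.9, 21.2 and 20.9 CPM, pooled at least 1.37-fold above the limit of 14.7 CPM. No bound was left in Endo nuclei with at most 2500 genes (11.0, 16.6 and 9.33 CPM, limit 15.2 CPM) or without nuclei with a fibroblast marker UMI (11.1, 17.9 and 8.28 CPM, limit 67.2 CPM on 48 control nuclei). With nuclei thinned to 1000 UMIs, which raises every limit, the bound was 4.72-fold in Astro and none was left in Endo or Microglia. OPC levels of 4.31, 15.7 and 7.27 CPM lay under the OPC limit of 16.1 CPM, so no fold can be given there. None of these was called, with edgeR adjusted p = 0.0396 in Endo, 0.0777 in Astro and 0.330 in Microglia. In ExN the gene had 0.635 to 1.39 CPM in the injured animals and 0.351 CPM in control (adjusted p = 0.105), in InN 0.248 to 1.60 CPM against no control UMI, and in Oligo 0 to 3.95 CPM against 3.13 CPM. Signal was therefore largely in injured Microglia, Astro and Endo, with neurons and Oligo near 0.

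**Figure D2:**
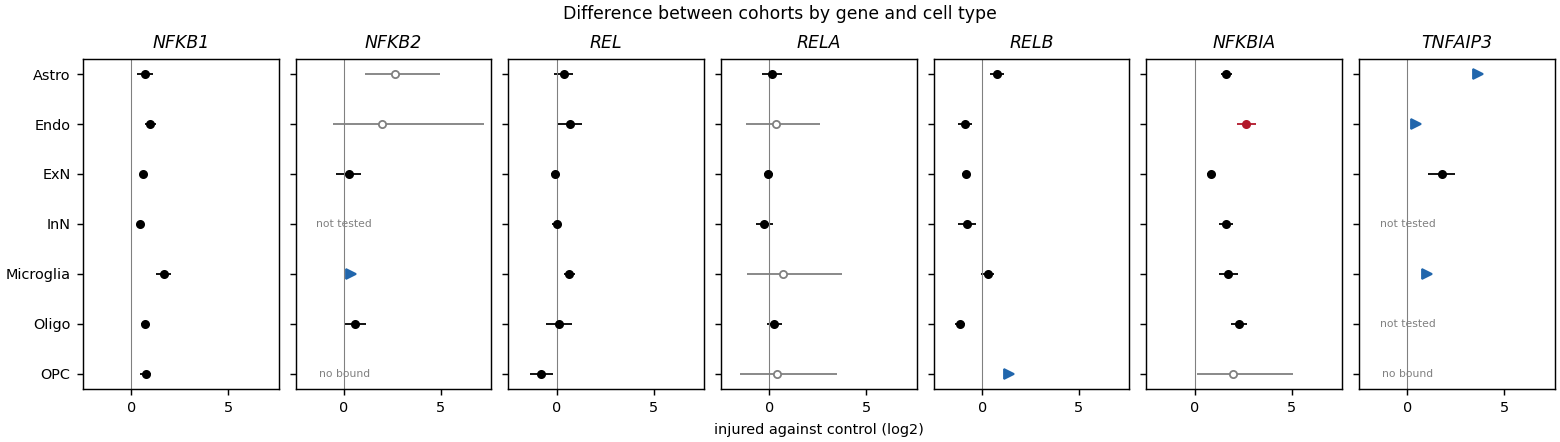
Injured against control difference (log2) of each gene in each cell type. Filled points are fitted values with their SE, red where called (NFKBIA in Endo). Open grey points are ratios with counting intervals where control had 1 to 3 UMIs. Blue triangles are lower bounds of the pooled injured level where control had none. Text marks pairs without a test or bound.

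Among the subunits, NFKB1, the p105 precursor of p50, had a UMI in control in 7.75% to 32.5% of nuclei of a type. In Microglia it was at 211, 296 and 259 CPM in the injured animals and at 96.4 CPM on 12 UMIs in control, a log2 difference of 1.66 (SE 0.38, edgeR adjusted p = 0.0876). In Endo the levels were 168, 185 and 175 CPM against 98.0 CPM on 20 UMIs, a difference of 0.98 (SE 0.28, adjusted p = 0.0400). Injured animals were above control in both, without a call.

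Oligo had the highest NFKB1 level of all types in both cohorts, at 272, 316 and 324 CPM in the injured animals and 204 CPM in control (0.68, SE 0.19, edgeR adjusted p = 0.0621). In ExN it was at 176, 215 and 228 CPM against 146 CPM on 2494 UMIs, a log2 difference of 0.62 (SE 0.18, adjusted p = 0.0495). All 3 animals were also above control in Astro, InN and OPC, with differences of 0.71, 0.46 and 0.74 and adjusted p = 0.295, 0.0857 and 0.203. NFKB1 and NFKBIA were thus the members for which 3 of 3 animals exceeded control in all 7 types, a pattern that within a single type was met by 36% of all genes in Astro, 47.8% in Endo, 31.3% in ExN, 30.8% in InN, 49.4% in Microglia, 32.9% in Oligo and 41.4% in OPC. The share of all genes that met the pattern in all 7 types is not given. The types come from the same libraries, so the single-type shares cannot be multiplied.

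NFKB2, the precursor of p52, was low in control glia. In Astro it was at 18.7, 29.7 and 17.0 CPM in the injured animals and 3.47 CPM on 3 UMIs in control, a ratio of 6.22 with a counting interval of 2.10 to 30.4 (edgeR adjusted p = 0.0479). In Microglia the levels of 27.5, 37.0 and 31.8 CPM stood against no control UMI. Pooled, they were at least 1.30-fold above the limit, a bound that was not left with nuclei thinned to 1000 UMIs. Both differences were in 3 of 3 animals, and neither was called. Without nuclei of clusters 16 and 19, left out on the injured side alone, NFKB2 in Microglia was at 22.1, 32.8 and 28.2 CPM. Animal 1 was then under the limit of 24.1 CPM, and the pooled bound was 1.11-fold. The bound was 1.59-fold in nuclei with at most 2500 genes and 1.94-fold without nuclei with a macrophage or monocyte marker UMI.

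In Endo, NFKB2 stood at 21, 15.7 and 20.4 CPM against a single control UMI (4.90 CPM), a ratio of 3.83 whose counting interval of 0.68 to 152 includes no difference. OPC had 10.4 to 13.6 CPM in the injured animals and no control UMI, below what the depth allows a fold for. In Oligo the injured range of 5.35 to 7.31 CPM lay just above 4.70 CPM, and ExN and InN held at most 2.38 CPM in any library. The gene was therefore seen in glia and Endo of the injured animals and hardly in neurons.

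RELA, the main transactivating subunit of the canonical pathway, showed no difference that passed in any type, with edgeR adjusted p = 0.581 in Microglia and higher values in the other types. In Microglia it was at 22.8, 34.1 and 24.5 CPM against 16.1 CPM on 2 control UMIs, a ratio of 1.64 with a counting interval of 0.45 to 13.5. In ExN, where control had 205 UMIs, the levels were 9.68, 12.6 and 9.42 CPM against 12 CPM, a log2 difference of -0.06. Control fell inside the range of the injured animals in ExN, and in Microglia the counting interval spans no difference. In the other types the injured ranges were 10.7 to 22.2 CPM in Astro (control 16.2 CPM), 16.6 to 20.5 CPM in Endo (14.7 CPM), 8.42 to 19 CPM in InN (17.5 CPM), 11.9 to 16 CPM in Oligo (12.5 CPM) and 10.5 to 18.3 CPM in OPC (10.7 CPM). They held the control value in all but Endo, and the fitted sign turned with thinned nuclei in Astro (0.13 to -0.97), ExN, InN and Oligo.

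REL, which encodes c-Rel, a subunit prominent in lymphoid and myeloid cells, was highest in Microglia in both cohorts. Over the markers listed in both tables, Microglia sums held 289 to 350 CPM of T and NK lymphocyte genes in the injured animals against 96.4 CPM in control, 241 to 310 CPM of B lymphocyte genes against 48.2 CPM, and 1233 to 2549 CPM of macrophage and monocyte genes against 1036 CPM. Its Microglia level was 113, 127 and 108 CPM in the injured animals and 88.4 CPM on 11 UMIs in control, a log2 difference of 0.64 (edgeR adjusted p = 0.375). Without nuclei of clusters 16 and 19, left out on the injured side alone in an alternative chosen after seeing the data, it was 90.2, 102 and 85.7 CPM, which spans the control value, and with every nucleus thinned to 1000 UMIs the fitted difference was -0.28. It was larger than 0.64 in nuclei with at most 2500 genes (0.84), without nuclei with a lymphocyte marker UMI (0.98) and without nuclei with a macrophage or monocyte marker UMI (1.38, edgeR adjusted p = 0.0635), the last of these chosen after seeing the data. In ExN, with 518 control UMIs, REL was at 24.3, 30.0 and 24.2 CPM against 30.3 CPM (-0.09), and in InN at 26.4, 26.9 and 31.2 CPM against 30.5 CPM (-0.01).

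Endo of the injured animals held REL at 34.5, 28.4 and 24.0 CPM against 19.6 CPM on 4 UMIs (log2 difference 0.68), and OPC at 19.7, 18.3 and 13.1 CPM against 32.1 CPM on 6 UMIs (-0.79, edgeR adjusted p = 0.484). Animals stood on opposite sides of control in these types, on 4 and 6 control UMIs, and the Endo difference was -0.48 with thinned nuclei. Without nuclei with a fibroblast marker UMI, OPC turned to 0.73, with 24.5, 16.2 and 14 CPM against 11.7 CPM on 2 UMIs. Astro (10.3 to 11.6 CPM against 9.25 CPM) and Oligo (3.51 to 5.94 CPM against 4.70 CPM) both lay within the counting interval of control.

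RELB, the partner of p52 in the non-canonical pathway, lay below control in several injured types. In Oligo it was at 72.4, 46.1 and 69.0 CPM in the injured animals and 146 CPM on 187 UMIs in control (exact Poisson 95% interval 126 to 169 CPM), a log2 difference of -1.13 (SE 0.27, edgeR adjusted p = 0.0426). In ExN it was at 17.4, 16.7 and 21.7 CPM against 35.9 CPM on 613 UMIs, a difference of -0.83 (SE 0.19, adjusted p = 0.0237). All 3 animals lay below the control interval in both types, and neither adjusted p was below 0.01.

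Endo followed with 36.6, 41.7 and 38.0 CPM against 78.4 CPM on 16 UMIs (log2 difference -0.88, SE 0.34, edgeR adjusted p = 0.110), and InN with 5.20, 5.86 and 12.9 CPM against 14.9 CPM (-0.77, adjusted p = 0.271). In Astro RELB was on the other side, at 35.0, 57.4 and 47.8 CPM against 30.1 CPM (0.76, adjusted p = 0.216). In OPC it was at 42.5, 35.2 and 46.5 CPM with no control UMI. The pooled level was at least 2.61-fold above the limit (edgeR adjusted p = 0.0614), and 1.11-fold with nuclei thinned to 1000 UMIs. RELB was called in OPC without injured animal 2, where more genes of the pathway lists described below were called too. The share of all genes called in that refit is not given. Microglia did not separate, with 79.0, 99.3 and 93.0 CPM against 88.4 CPM. RELB thus lay below control in 3 of 3 animals in 4 types and above it in 2. Of all genes, 43.5% lay below control in 3 of 3 animals in Oligo, 47.5% in ExN, 40.9% in Endo and 44.9% in InN. Above it in 3 of 3 animals were 36% of all genes in Astro and 41.4% in OPC.

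Whether injury acted differently on a member in one type than in the mean of the other 6 was tested in a joint edgeR fit with each library as a block. No member passed an adjusted p of 0.01 in any type, although 7 of the 49 tests (5 of TNFAIP3 and 2 of NFKB2) had no usable error because sums held no UMI. Among all genes 0.528% passed in Astro, 3.38% in Endo, 0.25% in ExN, 0.129% in InN, 2.53% in Microglia, 0.305% in Oligo and 0.19% in OPC, and 10 of 49 tests had an unadjusted p below 0.05, beside 15.2% over all genes and types. Of these 10, 8 were of RELB, NFKB2 or TNFAIP3 and carry a sum without a UMI, and 2 of the 28 tests of the other 4 members remained. The lowest values were those of NFKBIA in ExN and RELB in Oligo. NFKBIA in ExN differed by -1.20 on the log2 scale (SE 0.28, adjusted p = 0.0395), where 1.58% of genes passed 0.05. RELB in Oligo differed by -2.68 (adjusted p = 0.0472, where 1.22% passed), a value that carries the OPC sum with no control UMI. For NFKBIA in Endo the difference was 0.95 (adjusted p = 0.446), so the single called change was not shown to be larger than in the other types.

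Across all genes of a type, the median log2 difference was 0.05 in Astro, 0.26 in Endo, 0.00 in ExN, 0.00 in InN, 0.42 in Microglia, 0.02 in Oligo and 0.17 in OPC. These medians are of fitted values, also for genes without control UMIs, and so are not the same measure as the members' medians below. The members' median, with genes lacking control UMIs at their bound, was 0.76 in Astro (7 of 7 above 0), 0.68 in Endo (6 of 7), 0.23 in ExN (4 of 7), -0.01 in InN (2 of 5), 1.0 in Microglia (7 of 7) and 0.40 in Oligo (5 of 6). In OPC it was 0.74 over the 5 members with a value or bound, and 6 of 7 fitted differences were above 0. Of all genes, 50.2% (InN) to 61.8% (Microglia) had a fitted difference above 0.

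The order of the cell types differed between the members and is given as a description, without a test. In the injured cohort NFKBIA was highest in Endo (142 ± 22.4 CPM, SD, n = 3), Microglia (112 ± 20.0 CPM) and Astro (110 ± 13 CPM), whose ranges over animals overlapped, followed by OPC (43.8 ± 10.1 CPM) and Oligo (32.0 ± 6.84 CPM), which overlapped, and by InN (17.2 ± 2.70 CPM) and ExN (16.3 ± 2.54 CPM). Within each injured animal, however, Endo was above both Microglia and Astro, and OPC was above Oligo. In control the Poisson intervals of neighbouring types overlapped throughout, from Microglia at 40.2 CPM to InN at 5.84 CPM, but that of Astro (26.3 to 53.6 CPM) lay above those of ExN (8.35 to 11.4 CPM), Oligo and InN. Astro thus stood above neurons and Oligo in both cohorts.

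REL stood apart in injured Microglia (116 ± 9.59 CPM), where its lowest animal exceeded every animal of every other type, and Endo, InN and ExN followed between 24.0 and 34.5 CPM with overlapping ranges. RELB was also highest in injured Microglia (90.4 CPM), ahead of Oligo (62.5 ± 14.3 CPM), whereas in control Oligo had the highest value (146 CPM) with an interval overlapping that of Microglia. TNFAIP3 (51.6 ± 26.2 CPM in Microglia, 44.7 ± 36.8 CPM in Astro) and NFKB2 (32.1 CPM in Microglia, 21.8 CPM in Astro) shared an order of Microglia, Astro, Endo and OPC, the first 3 of which overlapped between neighbours. Within each animal Microglia was above Astro for NFKB2, while for TNFAIP3 Astro was higher in animal 2. NFKB1 was led by Oligo (304 ± 27.9 CPM), with a range overlapping that of Microglia (255 ± 42.5 CPM), although Oligo was higher within each animal.

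UMIs of Microglia markers were also counted in nuclei of the other types, and more so in every injured type. Microglia held 14.7% to 33.7% of all UMIs in the injured libraries and 0.5% in control, and the sum of the 4 Microglia markers listed in both tables stood at 129 to 742 CPM in the other injured types against 61.5 to 206 CPM in control. Relative to its own Microglia level in the injured cohort, a Microglia marker was at a median of 11.1% in Astro and at most 30.5%, and at a median of 17.8% in Endo and at most 37.9%. NFKBIA was at 97.6% of its Microglia level in Astro and 126% in Endo, TNFAIP3 at 88.8% and 41.4%, and these 4 values lay above the range of those markers. In neurons, TNFAIP3 (2.32% in ExN) and NFKB2 (5.18%) lay within or under the marker range, and what Microglia RNA adds to the members' levels in each type was not tested.

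Of all NFKBIA UMIs in the injured libraries, 42.8% (mean of 3 animals) were in Microglia, 22% in Endo, 13.8% in Astro and 12.7% in ExN. TNFAIP3 UMIs lay to 65.0% in Microglia, NFKB2 UMIs to 58.4% and REL UMIs to 56.9%, whereas ExN held 43.9% of NFKB1 UMIs and Microglia 27.0%. In animal 1 that order was reversed, with 38.5% of NFKB1 UMIs in Microglia and 33.9% in ExN. In every animal Microglia held most of the TNFAIP3 UMIs (at least 58.8%) and NFKB2 UMIs (at least 51.3%), whereas the REL share ranged from 45.3% to 72.3% and includes the nuclei of cluster 16.

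**Figure D3:**
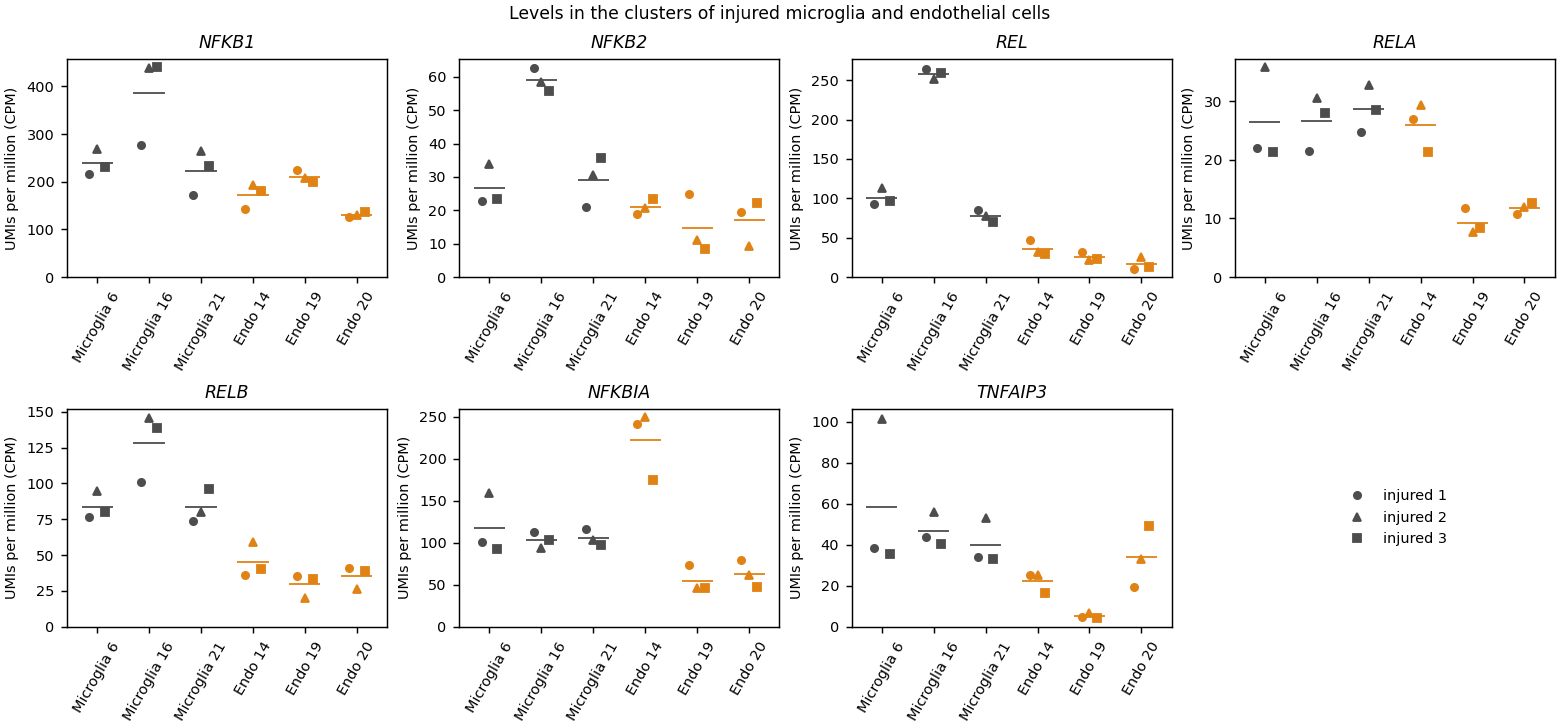
Level (CPM) of the 7 genes in the deposited clusters of injured Microglia (6, 16 and 21, grey) and injured Endo (14, 19 and 20, orange), with 1 point per injured animal and the mean as a bar. REL is highest in cluster 16, the cluster with lymphocyte genes, and among the 3 Endo clusters drawn NFKBIA is highest in cluster 14, which carries the endothelial gene FLT1; the small clusters 11 (Endo, 87 nuclei) and 27 (Microglia, 21 nuclei) are not drawn.

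Within the injured Microglia, the deposited clusters differed for some members, again as a description because clusters were built from these genes too. Cluster 16 held REL at 258 ± 6.15 CPM (SD, n = 3 animals), against 101 ± 10.7 CPM in cluster 6 and 77.7 ± 8.12 CPM in cluster 21. NFKB2 was likewise at 59.0 CPM in cluster 16 against 26.7 and 29.1 CPM, NFKB1 at 385 against 239 and 223 CPM, and RELB at 129 against 83.7 and 83.4 CPM. NFKBIA (103, 118 and 106 CPM in clusters 16, 6 and 21) and RELA (26.6, 26.4 and 28.7 CPM) were near one level. Cluster 16 carried CD3E at 96.3 CPM, against 0.370 CPM or less in the other clusters, together with the T-cell adaptor SKAP1 at 443 CPM, so the subunit levels of the label Microglia include nuclei with lymphocyte genes.

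Within injured Endo, cluster 14 (1647 nuclei) carried FLT1 at 2207 CPM and the pericyte gene RGS5 at 989 CPM, cluster 20 (705 nuclei) carried DCN at 1421 CPM and COL1A2 at 2322 CPM, and cluster 19 (2005 nuclei, median 1150 UMIs) carried FLT1 at only 21.6 CPM. Cluster 19 made up 45.1% of injured Endo nuclei and held IGFBP7 at 121, SLC2A1 at 40.4, RGS5 at 21.2 and DCN at 32.0 CPM. In cluster 14, IGFBP7 was at 2758 CPM and SLC2A1 at 1764 CPM. NFKBIA was at 222 ± 41.0 CPM in cluster 14, 54.9 ± 16 CPM in cluster 19 and 63.1 ± 16.3 CPM in cluster 20. A small further cluster, number 11, with 8, 21 and 58 nuclei in the 3 animals, carried FLT1 at 2684 CPM and NFKBIA at 161 CPM over its pooled nuclei, where cluster 14 had 217 CPM. TNFAIP3 was at 22.2 CPM in cluster 14, 5.26 CPM in cluster 19 and 33.9 ± 14.9 CPM in cluster 20. The high Endo level of NFKBIA was thus that of nuclei with endothelial and pericyte genes.

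**Figure D4:**
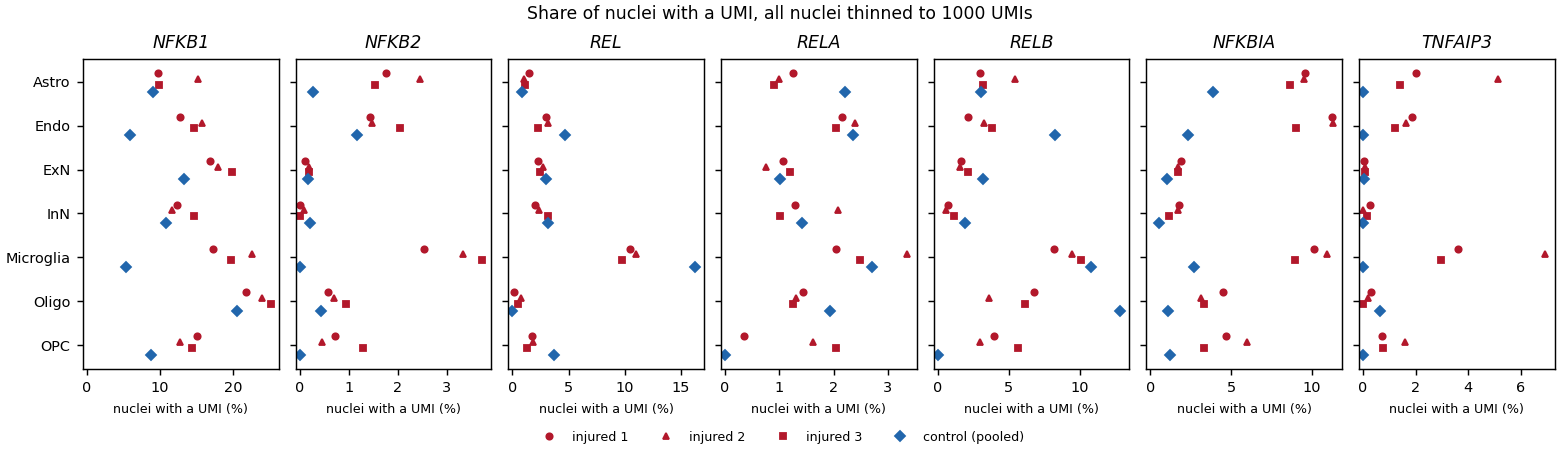
Share of nuclei (%) with at least 1 UMI of each gene after every nucleus was thinned to 1000 UMIs, per cell type. Red symbols are the 3 injured animals and blue diamonds the control library. NFKBIA and NFKB1 lie above control in all 3 animals in 7 of 7 types, and RELB lies at or below it in 5 types.

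Injured nuclei were deeper (median 3531 to 4504.5 UMIs per library against 2117), which by itself raises the share of nuclei with a UMI. Over all nuclei the share was higher in all 3 animals in 43 of 49 pairs (42 of the 46 tested), and so it was for 84.1% of all genes tested over the 7 types. After thinning each nucleus to 1000 UMIs it held in 28 of the 46 tested pairs (38.4% of all genes), and after thinning to 500 UMIs, which left out no nucleus, in 27 (34.5%). Thinning to 1000 left out 2185 of 29537 injured and 1506 of 8610 control nuclei, and kept only 37 control Microglia, 85 Endo and 80 OPC nuclei. NFKBIA had a UMI in 10.5% ± 1.30 of thinned injured Endo nuclei (SD, n = 3) and 2.35% of control, in 9.22% ± 0.52 against 3.87% in Astro, and in 9.99% ± 0.99 against 2.70% in Microglia. In ExN the same shares were 1.77% and 1.03%, and all 3 animals were above control in each type, at 500 UMIs too. NFKB1 was above control in all 3 animals in 7 types at 1000 UMIs and in 4 at 500 UMIs.

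RELB had a UMI in 5.52% of thinned injured Oligo nuclei on average and in 12.8% of control, and no animal exceeded control in Endo, ExN, InN, Microglia or Oligo at 1000 UMIs. At 500 UMIs this still held in Endo, ExN and Oligo, while in Microglia all 3 animals were above control (4.43% against 3.1%). REL exceeded control in no animal in Endo, ExN, Microglia or OPC at 1000 UMIs, whereas at 500 UMIs all 3 animals were above it in Endo (1.60% against 0.552%) and Microglia (5.6% against 2.33%). The shares of TNFAIP3 in thinned Microglia (4.51% ± 2.12) and Astro (2.85% ± 2.0) stood against 0 of 37 and 0 of 362 control nuclei.

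The rest of the pathway was followed in 7 lists by role (further IkappaB proteins, ubiquitin editors and A20 partners, the IKK complex and kinases, linear ubiquitin and adaptors, receptors, ligands, targets), 87 genes in all, of which 69 were listed in both tables. In Astro, 44 of 59 tested genes had a difference above 0 and 3 were called higher (1.12% of all genes in Astro). TAB1, which had no UMI in any injured sum and 21 to 320 in the control sums tested, is counted as lower in Astro, ExN, InN and Oligo and is not read as a change. In Endo, 43 of 62 were above 0, with 3 called higher (4.19% of all genes) and 1 lower (1.99%), and in ExN 44 of 68 with 1 called higher (2.6%). InN (35 of 58), Microglia (53 of 66), Oligo (38 of 48) and OPC (42 of 52) had 0 calls by edgeR and by DESeq2 at 0.01, while 21, 23, 22 and 14 of their genes had an unadjusted edgeR p below 0.05, beside 34.8%, 21.2%, 30.8% and 19.9% of all genes. With genes lacking control UMIs at their bound, the lists' median log2 difference was 0.89 in Astro, 0.44 in Endo, 0.23 in ExN, 0.24 in InN, 0.75 in Microglia, 0.56 in Oligo and 0.79 in OPC, although bounds could not be given for 10 genes in Endo, 13 in Microglia and 9 in OPC. The medians over all genes given above are of fitted values instead.

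Of the further IkappaB proteins and of the ubiquitin editors and A20 partners, none was called in any type. Of the receptors, TNFRSF1A, the main receptor for TNF, rose in Astro from 4.62 CPM (4 UMIs) to 40.2, 48.2 and 46.2 CPM, by 3.38 on the log2 scale (SE 0.44, edgeR adjusted p = 0.00556). LTBR, the lymphotoxin beta receptor that feeds the non-canonical pathway, was called higher in Endo at 51.8, 51.3 and 47.2 CPM with no control UMI. Its pooled level was at least 3.38-fold above the limit (edgeR adjusted p = 0.00448). TNFRSF1A lay above control in every injured animal in Astro. For LTBR in Endo, every animal lay above the limit of 14.7 CPM that 3 control UMIs would give. With nuclei thinned to 1000 UMIs its pooled bound was 1.22-fold. None was left without nuclei with a fibroblast marker UMI, at 49.2, 46.4 and 53.6 CPM against a limit of 67.2 CPM. LTBR was not called under DESeq2, with thinned nuclei, in nuclei with at most 2500 genes or without nuclei with a macrophage or monocyte marker UMI.

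Among adaptors, TRAF1, itself an NF-kappaB target, rose in Astro from 4.62 CPM to 43.9, 64.6 and 59.0 CPM (3.70, SE 0.51, edgeR adjusted p = 0.00656). TRAF5, an adaptor of TNF receptor family members, rose there from 17.3 CPM to 75.2, 69.0 and 63.4 CPM (2.10, SE 0.30, adjusted p = 0.00700). None of these 3 Astro calls was left with nuclei thinned to 1000 UMIs or in nuclei with at most 2500 genes. Thinned, TRAF1 was at 3.15 (adjusted p = 0.0155), TRAF5 at 1.96 (adjusted p = 0.0214), and TNFRSF1A, with no control UMI left and an adjusted p of 0.00412, was under the share limit in 4.30% of injured nuclei. With at most 2500 genes TRAF1 was at 3.26 (adjusted p = 0.0197), TRAF5 at 2.07 (adjusted p = 0.0227) and TNFRSF1A at 3.00 (adjusted p = 0.0208). Without animal 1 the TRAF5 call was lost (2.06, adjusted p = 0.0173). TRAF1 also lost its call without nuclei with a macrophage marker UMI (3.49, with an adjusted p just over 0.01) and, by its share of nuclei, without nuclei with a fibroblast marker UMI (3.25). The differences with a fitted value thus kept most of their size in these settings. Of the kinases, MAP3K14, the NF-kappaB-inducing kinase of the non-canonical pathway, fell in Endo from 171 CPM on 35 UMIs to 43.2, 45.8 and 53.3 CPM (-1.71, SE 0.28, adjusted p = 0.00447). The control Endo sum, in which MAP3K14 was higher, was also the one with more fibroblast marker RNA, and without nuclei with a fibroblast marker UMI the gene was at 27.0, 34.1 and 37.0 CPM against 179 CPM on 8 UMIs (-2.06, adjusted p = 0.0800).

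Of the targets, SOD2, a mitochondrial superoxide dismutase, was called higher in Endo at 248, 314 and 310 CPM against 14.7 CPM on 3 UMIs, a ratio of 20.3 with a counting interval of 6.93 to 98.3 (edgeR adjusted p = 0.000891). IER2, an immediate early gene, was called higher in Endo at 89.6, 116 and 71.5 CPM with no control UMI. Its pooled level was at least 6.29-fold above the limit (edgeR adjusted p = 0.00721), and 2.30-fold with nuclei thinned to 1000 UMIs. IER2 was not called under DESeq2, with library size in place of TMM scaling or with thinned nuclei. The call was kept in nuclei with at most 2500 genes and without nuclei with a macrophage or monocyte marker UMI. Without nuclei with a fibroblast marker UMI, IER2 was at 87.3, 131 and 75.0 CPM against a limit of 67.2 CPM. IER3, an early response gene linked to cell survival, rose in ExN from 5.21 CPM on 89 UMIs to 24.0, 17.3 and 19.9 CPM (2.08, SE 0.25, edgeR adjusted p = 0.00334). It was not called in nuclei with at most 2500 genes (1.65, adjusted p = 0.0214) or, by its share of nuclei, with nuclei thinned to 1000 UMIs (1.79). These 3 targets were above control in every injured animal, and no ligand was called in any type. Without injured animal 1, SOD2 was the pathway gene still called in Endo and none was in ExN, with IER3 at 1.96 (edgeR adjusted p = 0.0183) and MAP3K14 at -1.65 (adjusted p = 0.0116). Without nuclei with a fibroblast marker UMI none of the 4 Endo calls was left, and SOD2 was at 235, 297 and 328 CPM against 67.2 CPM on 3 UMIs of the 48 control nuclei.

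Genes with the most similar pattern were ranked by Pearson's r of log2(CPM + 10) over the 28 sums, as a description in which sums of 1 library and of 1 type share their source and depth. NFKBIA was closest to ZFP36, which encodes a factor that promotes the decay of inflammatory mRNAs (r = 0.932), to ENSCJAG00000006599 (0.932) and to ANXA1 (0.923). NFKB2 was closest to TNFRSF1A (0.932), CLEC2B (0.931) and TNFAIP3 (0.927), and TNFAIP3 to NFKB2 (0.927), TNFRSF1A (0.897) and ZFP36 (0.892), so these 2 members were each among the other's nearest genes.

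REL was closest to PDCD1LG2 (r = 0.935), RAPGEF1 (0.922) and HCLS1 (0.915), the last of which is a hematopoietic cell gene. RELB was closest to ENSCJAG00000010039 (DDX54, 0.868), SLC12A9 (0.829) and CYP27A1 (0.826), RELA to VCPIP1 (0.840), STX12 (0.820) and CALHM6 (0.815), and NFKB1 to TRIM44 (0.831), DPY19L1 (0.799) and DENND4B (0.798). No member had NFKB1, RELA or RELB among its 3 nearest genes.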

How the data were processed

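Single-nucleus libraries (10x Genomics 3' v3) were made from V1 of 3 injured animals and from 1 pool of 3 control animals. Per the labels and the submitters' processing notes, the authors used cellranger 3.1.0 with the calJac3 genome, an Ensembl annotation and Seurat, and deposited UMI counts per gene and nucleus with cell type labels and clusters; the counts were not normalized. In all 38147 nuclei the totals equalled those in the deposited table of nuclei.

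The UMIs of all nuclei of a library and cell type were added up (28 sums) and tested with edgeR 4.0.16 (R 4.3.3), with TMM scaling, filterByExpr and the quasi-likelihood test over the genes listed in both tables, with Benjamini-Hochberg adjustment over all genes tested in a type. The SE was taken from the log2 fold change and its F statistic. CPM is UMIs per 1000000 UMIs of all genes listed for the cohort (32323 for injured, 16383 for control). The injured totals thus include genes not listed for control, which the tests left out. Exact Poisson and Clopper-Pearson 95% intervals and limits of 3 UMIs cover counting error only. Bounds set the pooled level of the injured animals against such a limit. The labels do not tie the control pool to single animals, so p-values rest on the spread of the 3 injured libraries. Python 3.11.15, numpy 2.4.6, pandas 2.3.3 and scipy 1.17.1 were used.

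The members and the lists were chosen with earlier results of these data known. All 7 members are named, list genes where called (at most 4 per list and type, smallest p first), and the 3 genes most alike for members with a mean of at least 10 CPM. On simulated counts, 39% of genes changed 4-fold and 2% of those changed 2-fold were called in Endo, 17% and 0% in Microglia and 88% and 54% in ExN. These calls used the adjusted p and fold change limits without the 10% limit on the share of nuclei, so the full rule could only call fewer. Alternatives were DESeq2 1.42.0, library size scaling, no filter, an adjusted p limit of 0.05, nuclei thinned to 1000 or 500 UMIs, nuclei with at most 2500 genes, each injured library left out, and nuclei without marker UMIs of other cell types. Genes listed for the injured cohort alone were not tested. No genome coordinates or sequences were used.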

Additional observations from a re-analysis of the deposited data

Results flagged for a closer look

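Among the tested pairs, REL and RELB had every injured animal above control in some cell types and every one below it in others. NFKB2 likewise lay above control in 5 types and below it in InN (1.60, 1.47 and 0.495 CPM against 2.27 CPM), where it was not tested. REL had a fitted log2 difference of 0.68 in Endo and -0.79 in OPC, which are 1.48 apart, on 4 and 6 control UMIs. Both signs turned under an alternative, to -0.48 in Endo with nuclei thinned to 1000 UMIs and to 0.73 in OPC without nuclei with a fibroblast marker UMI. RELB had 0.76 in Astro and -1.13 in Oligo, which are 1.89 apart, on 26 and 187 control UMIs. The difference between these pairs of types was not tested.

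Several genes of the pathway lists were listed for the injured cohort alone, so they have no control value and were in no comparison. In injured Microglia, levels over the 3 animals together were 58.5 CPM for TNF and 37.9 CPM for IL1B, the cytokines that activate the pathway, 1.14 CPM for LTA, 56.9 CPM for the Toll-like receptor TLR4 and 25.1 CPM for TLR2, 12.9 CPM for the inhibitor of apoptosis BIRC3 (7.38, 27.0 and 8.51 CPM in animals 1, 2 and 3, and 7.83 CPM without animal 2) and 8.48 CPM for IL6. In injured Astro, CXCL8 was at 4.49 CPM (8.88, 6.49 and 0.522 CPM, and 7.50 CPM without animal 3) and LIF at 0.562 CPM on 5 UMIs. In injured Endo, CXCL10, an interferon- and NF-kappaB-responsive chemokine, was at 873 CPM (565, 1531 and 422 CPM, and 473 CPM without animal 2).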

How the results depend on the processing

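No paired analysis was possible because control is 1 pooled library and the labels give no shared replicate numbers. Of 597 refitted log2 differences of the members, 19 changed sign, 18 of them of REL or RELA, and NFKB1, NFKBIA and RELB changed sign in 0 of 93 each.

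The number of members called in Astro (0) was 1 under DESeq2, at an adjusted p limit of 0.05, without the filter on low counts and without nuclei with a macrophage marker UMI, and ranged from 0 to 1 when injured libraries were left out (1 without animal 2 or 3). The member was NFKBIA, at log2 differences of 1.62, 1.64, 1.68 and 1.72 in these 4 settings and of 1.55 to 1.71 with a library left out. Of all genes tested in Astro, 2.81% were called under DESeq2 and 7.16% at the 0.05 limit. Shares of all genes called in the other refits are not given, so calls gained or lost there are not read as results about the members. In Endo (1) the number of members called was 2 at 0.05 (13.6% of all genes). It was 0 with library size alone, thinned nuclei, nuclei without fibroblast marker UMIs, or without animal 1 (range 0 to 1). NFKBIA was at 2.55, 2.61, 1.17 and 2.62 in these settings (range 2.53 to 2.78 with a library left out). At 0.05 the number of members called was 1 in ExN (12.1% of all genes) and 1 in Oligo (4.32%), and in OPC it ranged from 0 to 1 (1 without animal 2).

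The number of pathway list genes called in Astro (3 of 59) was 7 under DESeq2 (2.81% of all genes) and 10 at 0.05 (7.16% of all genes). It was 6 without the filter, 1 with thinned nuclei (IRAK2, not one of the 3) and 0 in nuclei with at most 2500 genes. With a library left out it ranged from 2 to 10 (10 without animal 2, 5 without animal 3, 2 without animal 1). In Endo (4 of 62) it was 2 under DESeq2 (5.18% of all genes), 9 at 0.05 (13.6%) and 2 with thinned nuclei. It ranged from 1 (without animal 1) to 9 (without animal 2), and was 7 without animal 3. In ExN (1 of 68) it was 2 under DESeq2 (7.89% of all genes), 4 at 0.05 (12.1%) and 0 with thinned nuclei. It ranged from 0 (without animal 1) to 5 (without animal 3), and was 3 without animal 2. In InN (0 of 58) it was 4 at 0.05 (11% of all genes) and 1 in nuclei with at most 2500 genes, with a range of 0 to 2 (2 without animal 2). At 0.05 it was 2 in Microglia (2.58% of all genes), 5 in Oligo (4.32%) and 1 in OPC (1.19%), and OPC ranged from 0 to 5 (5 without animal 2, 1 without animal 3). Shares of all genes called in the other refits are not given, so the counts there are not read as results about the lists. Pairs with a higher share of nuclei in all 3 animals (43) were 28 and 27 after thinning to 1000 and 500 UMIs.

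Thinning to 1000 UMIs gave REL -0.48 in Endo and -0.28 in Microglia, and RELA -0.97 in Astro, 0.083 in ExN, 0.26 in InN and -0.40 in Oligo. Without nuclei with a lymphocyte marker UMI, REL was -0.20 in Astro and 0.11 in InN and RELA -0.046 in Astro. REL in Astro was -0.17 without nuclei with a macrophage marker UMI, REL in OPC 0.73 without nuclei with a fibroblast marker UMI, and RELA in Astro -0.16 there and -0.13 in nuclei with at most 2500 genes. With a library left out, NFKB2 in ExN ranged from -0.39 to 0.50, REL in InN from -0.089 to 0.050, RELA in Astro from -0.18 to 0.37 and RELA in ExN from -0.23 to 0.019. The settings that leave out macrophage or fibroblast marker nuclei were chosen after seeing the data; the cause of these changes was not tested.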
